A study of Mus musculus with 10 samples.

Results

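Transcripts of 6 prostate lobe secretory genes, Pbsn, Msmb, Tgm4, Spink1, Azgp1 and Mme, were followed tumour by tumour in 10 mouse prostate orthografts. The genes were taken by name, all 6 were among the 47069 genes in the count files, and all 6 were among the 17644 genes left by the filter on low counts. Msmb passed that filter through CP1 replicate 1 and P1 replicates 1 and 2, its other tumours having 0 to 2 counts. Each tumour grew in a male CD-1 Nude mouse, a strain that lacks a normal thymus, after cells of 1 line had been injected into an anterior prostate lobe, so bulk RNA of the excised tumour can hold RNA of graft and host gland. CP2 cells (4 tumours) and CP1 cells (3 tumours) carry a Ctnnb1 deletion through which beta-catenin is stabilised, and came from prostate tumours of mice aged 8 and 6 months. P1 cells (3 tumours) are labelled with no such deletion and came from a mouse aged 14 months. The donor genotypes differ in more than this deletion, the labels do not name the promoter that drove recombination, each line came from 1 donor tumour, and line, genotype and donor age cannot be told apart. The title of CP2 replicate 1 names CP1, while its source and tissue labels name CP2, where it was kept.

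The mouse prostate is a gland of paired lobes (anterior, dorsal, lateral and ventral), whose luminal cells release proteins into the seminal fluid. Much of this output depends on androgen, and the lobes differ in the proteins they make. The seminal vesicle, a neighbouring gland, supplies the bulk of the fluid's protein, mainly the Svs proteins that clot into the copulatory plug. Among the 6 genes, Pbsn encodes probasin, an androgen-regulated secreted lipocalin whose promoter is widely used to drive transgenes in mouse prostate. Tgm4 encodes prostate transglutaminase, which cross-links seminal vesicle proteins, and Msmb encodes beta-microseminoprotein, a small secreted protein. Azgp1 encodes zinc-alpha-2-glycoprotein, a secreted relative of class I histocompatibility proteins that liver and fat make too. Spink1 encodes a Kazal-type trypsin inhibitor, which in the mouse is made by the pancreas and the seminal vesicle. Mme encodes neprilysin, a cell surface metallopeptidase, and is the only one of the 6 whose product is not mainly secreted.

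Promoter sequences are shown for Pbsn, Tgm4 and Azgp1, because all 3 were higher in CP1 replicate 1 and P1 replicates 1 and 3 than in the other tumours. Azgp1 reached only 3.03 CPM there. Mme had the same 3 tumours highest, and its windows were searched but are not printed. RefSeq (GRCm38.p6) windows from 250 bases before to 50 after the annotated start were searched for 4 of the 6 genes, Pbsn, Tgm4, Azgp1 and Mme. Msmb and Spink1 were not part of this search, so nothing is said of their promoters. Capitals mark AGAACA or its reverse TGTTCT, a half-site that steroid receptors bind. The windows lie at chrX:77853451-77853750 (minus strand), chr9:123034491-123034790 (plus strand) and chr5:137981271-137981570 (plus strand), and read 5′ to 3′ along each gene.
Pbsn: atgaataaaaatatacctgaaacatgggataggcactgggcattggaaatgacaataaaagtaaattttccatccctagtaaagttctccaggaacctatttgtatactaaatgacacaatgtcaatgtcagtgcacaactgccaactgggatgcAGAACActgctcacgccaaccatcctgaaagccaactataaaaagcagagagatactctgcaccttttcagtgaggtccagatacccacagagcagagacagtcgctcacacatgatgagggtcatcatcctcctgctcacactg
Tgm4: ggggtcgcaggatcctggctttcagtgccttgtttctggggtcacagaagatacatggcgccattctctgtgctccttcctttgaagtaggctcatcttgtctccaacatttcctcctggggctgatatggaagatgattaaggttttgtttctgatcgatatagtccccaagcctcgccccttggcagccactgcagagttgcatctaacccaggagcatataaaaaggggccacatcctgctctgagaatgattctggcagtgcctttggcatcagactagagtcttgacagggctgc
Azgp1: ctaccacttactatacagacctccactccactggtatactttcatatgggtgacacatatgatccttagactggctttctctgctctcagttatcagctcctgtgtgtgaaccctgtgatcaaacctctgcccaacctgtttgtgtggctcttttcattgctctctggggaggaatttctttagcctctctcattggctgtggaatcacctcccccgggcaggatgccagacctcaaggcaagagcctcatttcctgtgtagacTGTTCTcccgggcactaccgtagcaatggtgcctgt
The Pbsn window held 1 half-site, at -95 to -90 with the start base as 0, and the Azgp1 window held 1 in reverse at 14 to 19. The Tgm4 window and the 3 Mme windows held 0. Half-sites occur by letters in 18.9% of 32544 mouse promoter windows of this length, and the matches describe letters only. The fuller palindrome of 2 such half-sites (0.0645% of windows, with some freedom in its letters) and the forkhead motif TGTTTNC (20.5% of windows, both strands searched) had 0 matches in all these windows, and no 2 matches overlapped.

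Library totals ranged from 18800912 to 20638085 counts in CP2, from 25081535 to 30546426 in CP1 and from 28050484 to 37180721 in P1, so that 3 counts correspond to 0.137 to 0.154 CPM (the usual unit of counts relative to library size, here scaled with TMM factors) in CP2, 0.0974 to 0.122 CPM in CP1 and 0.0924 to 0.109 CPM in P1. Within lines, libraries differed in transcripts of seminal vesicle and urothelial genes. Whether these came from host tissue or graft cells was not tested. The 11 seminal vesicle genes measured took 0.000431% to 0.175% of the counts in CP2 tumours, 0.000740% to 0.00314% in CP1 tumours, and 15.6%, 6.85% and 1.89% in P1 replicates 1, 2 and 3. The urothelial gene Upk3a stood at 8.16, 249 and 99.1 CPM in CP1 replicates 1, 2 and 3, against at most 1.42 CPM in each CP2 and P1 tumour. The 9 urothelial genes listed were not all alike. Summed, they took 0.0112%, 0.228% and 0.110% of the counts in CP1 replicates 1, 2 and 3, and 0.0192% to 0.0415% in P1. Krt20, also on the intestinal list, stood at 3.00 to 18.8 CPM in CP1 and 134 to 353 CPM in P1. The other 8 were called higher in CP1 than in P1 in the test described below.

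Pbsn (ENSMUSG00000000003, GRCm38 chromosome X: 77837901 to 77853623, minus strand) had 0.668, 12.03, 2.92 and 0.0466 CPM in CP2 replicates 1 to 4, 379, 1.07 and 0.608 CPM in CP1 replicates 1 to 3, and 388, 119 and 1394 CPM in P1 replicates 1 to 3. All P1 tumours and CP1 replicate 1 were high, and the other 6 tumours were lower than each of these 4. In bulk tumours fewer cells that make a transcript and less of it per cell cannot be told apart. Within a line the highest tumour exceeded the lowest by 258-fold in CP2, 623-fold in CP1 and 11.7-fold in P1. Per kilobase of exon Pbsn ranked 18th of all genes in P1 replicate 3 and 63rd in CP1 replicate 1, while in CP2 replicate 4 it rested on 1 read count.

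Tgm4 (ENSMUSG00000025787, chromosome 9: 123034726 to 123067561, plus strand) had 4.11, 28.0, 7.67 and 1.68 CPM in CP2, 185, 1.10 and 0.810 CPM in CP1, and 495, 61.2 and 711 CPM in P1. The tumours that were high in Pbsn were high in Tgm4 as well, and among CP2 tumours replicate 2 was the highest for both genes. Exons of Tgm4 share 307 bases with exons of Gm49323 on the same strand, for which no counts were used here, and 830 bases with exons of Zdhhc3 on the opposite strand, a strand setting for the counting being not given in the sources used here. Zdhhc3 stood at 120 to 122 CPM in CP2, 108 to 131 CPM in CP1 and 172 to 192 CPM in P1, a narrow range beside that of Tgm4.

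Mme (ENSMUSG00000027820, chromosome 3: 63241537 to 63386030, plus strand) had 1.39, 1.33, 1.60 and 1.35 CPM in CP2, 15.8, 0.779 and 0.284 CPM in CP1, and 29.9, 8.80 and 48.6 CPM in P1. It was again highest in the P1 tumours and CP1 replicate 1. In CP2 its highest tumour exceeded its lowest by only 1.21-fold, where Tgm4 spanned 16.7-fold over the same tumours, so in CP2 Mme did not follow Pbsn and Tgm4.

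Azgp1 (ENSMUSG00000037053, chromosome 5: 137981520 to 137990233, plus strand) was near the limit of detection, at 0, 2, 18 and 0 counts in CP2, 77, 7 and 8 counts in CP1, and 44, 7 and 83 counts in P1. In CPM these were 0, 0.0982, 0.821 and 0 in CP2, 2.72, 0.227 and 0.324 in CP1, and 1.36, 0.218 and 3.03 in P1. CP1 replicate 1 and P1 replicates 1 and 3 were highest, and P1 replicate 2 lay below CP1 replicates 2 and 3.

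Msmb (ENSMUSG00000021907, chromosome 14: 32142023 to 32158370, plus strand) differed from the others in being found almost wholly in 1 tumour. It had 0 counts in each of the 4 CP2 tumours, 1475, 0 and 0 counts in CP1 replicates 1, 2 and 3, and 20, 21 and 2 counts in P1. CP1 replicate 1 thus stood at 52.1 CPM, against 0.616, 0.655 and 0.0730 CPM in P1. A count of 0 allows at most 0.154 CPM in a CP2 tumour and 0.122 CPM in a CP1 tumour, for counting error only. P1 replicate 3, which had the most Pbsn of all tumours, had only 2 Msmb counts.

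Spink1 (ENSMUSG00000024503, chromosome 18: 43728082 to 43737557, minus strand) followed other tumours. It had 1.75, 0.0982, 0 and 4.98 CPM in CP2, 0.0707, 0.0974 and 0.122 CPM in CP1, and 729, 0.873 and 91.6 CPM in P1. CP1 replicate 1, with 379 CPM of Pbsn, had 2 Spink1 counts. P1 replicate 2 had 28 counts and lay below CP2 replicates 1 and 4, so the CP2 and P1 tumours overlapped, and P1 itself spanned 834.5-fold.

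**Figure D1:**
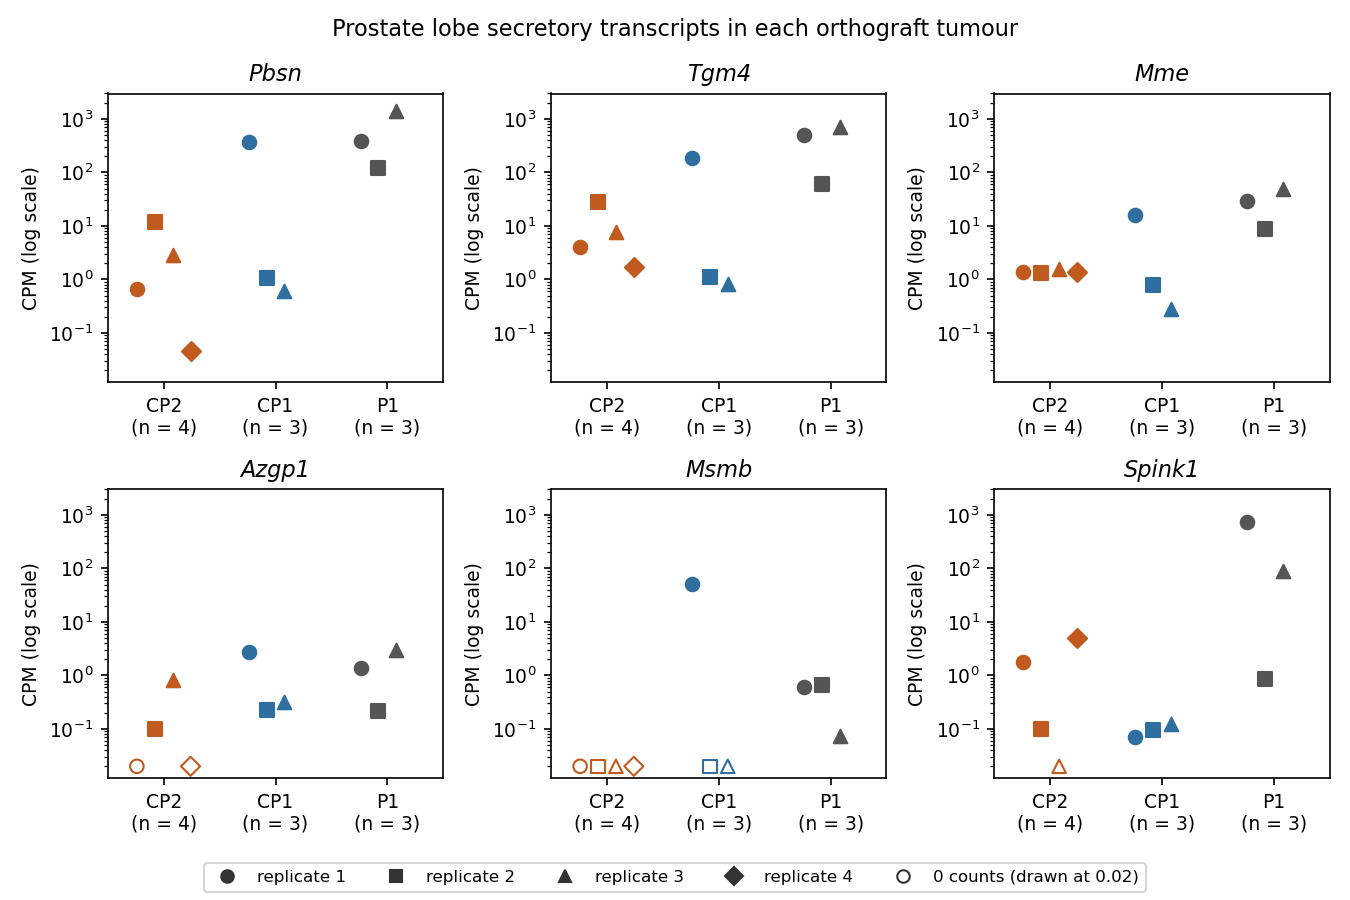
CPM of each gene (log axis) in every tumour, with CP2, CP1 and P1 from left to right and the replicate given by the symbol; open symbols stand for 0 counts and are drawn at 0.02. Pbsn, Tgm4 and Mme are high in CP1 replicate 1 and the 3 P1 tumours, Msmb is at 52.1 CPM in CP1 replicate 1 alone, and Spink1 is highest in P1 replicates 1 and 3.

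Compared per kilobase of exon, which allows levels of different genes to be set side by side, Pbsn was the most abundant of the 6 in P1. It averaged 4.34 ± 6.15 CPM per kilobase in CP2, 140.6 ± 242 in CP1 and 702.5 ± 745 in P1 (SD, n = 4, 3 and 3, here and below). Spink1 averaged 2.34 ± 3.19 CPM per kilobase in CP2, 0.132 ± 0.0349 in CP1 and 375.5 ± 544 in P1, and Tgm4 averaged 2.28 ± 2.64 in CP2, 13.7 ± 23.4 in CP1 and 92.8 ± 72.7 in P1. Mme averaged 0.123 ± 0.0108 in CP2, 0.486 ± 0.762 in CP1 and 2.52 ± 1.73 in P1, Azgp1 0.143 ± 0.247 in CP2, 0.677 ± 0.877 in CP1 and 0.953 ± 0.879 in P1, and Msmb 0 in CP2, 29.5 ± 51.1 in CP1 and 0.761 ± 0.552 in P1. In P1 the order from Pbsn to Msmb was thus Pbsn, Spink1, Tgm4, Mme, Azgp1 and Msmb, and of these neighbours only Tgm4 and Mme were separated by more than the larger of their SDs. Summed, the 6 genes took 0.000819% to 0.00436% of the counts in CP2 tumours, 0.0625%, 0.000331% and 0.000211% in CP1 replicates 1, 2 and 3, and 0.144%, 0.0187% and 0.219% in P1 replicates 1, 2 and 3. Pbsn supplied 59.7% of that sum in CP1 replicate 1 and 62.4% and 62% in P1 replicates 2 and 3, whereas Spink1 supplied 44.3% in P1 replicate 1 and 61.9% in CP2 replicate 4.

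In CP2, 4 of the 6 genes were called lower than in P1, against 28.4% of all genes tested. In CP1 it was 1 of 6, against 22.4%. These comparisons ask how lines with stabilised beta-catenin differ from P1. The 10 tumours shared 1 edgeR quasi-likelihood fit, and p-values were adjusted by the Benjamini-Hochberg method over all 17644 genes, with calls at an adjusted p below 0.05. The labels do not say that the tumours of a line came from separate animals, so p-values describe the spread among these samples, which may be partly technical.

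In CP2 versus P1, Pbsn, Tgm4, Mme and Spink1 fell, Azgp1 and Msmb were not called, and 0 of 6 were higher. Of all genes tested, 56.7% were called in this comparison, 28.3% higher and 28.4% lower. The median of the 6 log2 fold changes was -5.96, against 0.0016 over all genes. That median lies between the values of Tgm4 and Msmb. The Msmb value (-6.58 ± 5.27, SE) was fitted to 0 counts in CP2, so the median carries little weight. Pbsn averaged 3.92 ± 5.55 CPM in CP2 and 634 ± 672 CPM in P1, a log2 fold change of -7.34 ± 2.18 (SE; edgeR adjusted p = 0.0158). Mme averaged 1.42 ± 0.124 CPM in CP2 and 29.1 ± 19.9 CPM in P1, a log2 fold change of -4.36 ± 1.12 (edgeR adjusted p = 0.00751). For both genes each CP2 tumour lay below each P1 tumour, and both calls held in all 13 alternative settings. Their size depended on single tumours, with Pbsn at -6.03 without P1 replicate 3 and -9.01 without CP2 replicate 2, and Mme at -3.78 without P1 replicate 3. Tgm4 averaged 10.4 ± 12.03 CPM in CP2 and 422.5 ± 331 CPM in P1, a log2 fold change of -5.35 ± 1.75 (edgeR adjusted p = 0.0246). Its groups did not overlap either, and the value was -6.55 without CP2 replicate 2. The Tgm4 call was lost without P1 replicate 3 (edgeR adjusted p = 0.0574) and without CP2 replicate 1, 3 or 4 (0.0641, 0.0626 and 0.0599).

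Spink1 averaged 1.71 ± 2.33 CPM in CP2 and 274 ± 397 CPM in P1, a log2 fold change of -7.32 ± 1.73 (edgeR adjusted p = 0.00490). Its groups overlapped through P1 replicate 2, and the log2 fold change was -4.78 without P1 replicate 1 (edgeR adjusted p = 0.0258) and -8.84 without CP2 replicate 4. The seminal vesicle genes differed in the same direction, all 11 being called lower in CP2, with a median log2 fold change of -7.98. The part of gland tissue in the fall of Spink1 was not tested. Azgp1 averaged 0.230 ± 0.397 CPM in CP2 and 1.53 ± 1.41 CPM in P1 (log2 fold change -2.67 ± 1.30, edgeR adjusted p = 0.105), and was called lower without CP2 replicate 3 (-5.35, adjusted p = 0.0250). Msmb had 0 counts over CP2 and 43 over P1, at least 13.0-fold lower taking 3 counts for the whole line as the floor, and was not called (edgeR adjusted p = 0.323). Over the 6 genes, 4 had each CP2 tumour below each P1 tumour (Pbsn, Tgm4, Mme and Msmb), against 29.7% of all genes tested. For Msmb this order is not resolved. P1 replicate 3 had 2 counts (0.0730 CPM), while 0 counts allow up to 0.154 CPM in a CP2 tumour. Msmb also passed the filter only through P1 and CP1 tumours, so its place in this count carries no weight.

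In CP1 versus P1, Spink1 fell and the other 5 genes were not called. Of all genes tested, 44.8% were called, 22.4% higher and 22.4% lower, and the median of the 6 log2 fold changes was -2.35, against -0.0101 over all genes. Spink1 averaged 0.0965 ± 0.0254 CPM in CP1, from 8 counts in all, and 274 ± 397 CPM in P1, a log2 fold change of -11.41 ± 2.58 (edgeR adjusted p = 0.00492), and each CP1 tumour lay below each P1 tumour, the only such gene of the 6, against 25.3% of all genes. Without P1 replicate 1 it was -8.87 (adjusted p = 0.0110). All 11 seminal vesicle genes fell in CP1 too, with a median log2 fold change of -12.50. Their part in the Spink1 result was not tested.

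The other CP1 results turned on CP1 replicate 1. With it, Pbsn averaged 127 ± 218 CPM in CP1 and 634 ± 672 CPM in P1 (log2 fold change -2.32 ± 1.94, edgeR adjusted p = 0.364). Tgm4 averaged 62.4 ± 106.5 CPM in CP1 and 422.5 ± 331 CPM in P1 (-2.76 ± 1.74, adjusted p = 0.229), and Mme averaged 5.61 ± 8.80 CPM in CP1 and 29.1 ± 19.9 CPM in P1 (-2.37 ± 1.11, adjusted p = 0.111). Without that tumour 5 of 6 genes were called lower in CP1, where 3853 of 18028 genes tested in that fit were called lower. Msmb, 1 of the 5, had counts in P1 only among the CP1 and P1 tumours left, so its place in this count carries no weight. Leaving out the CP1 tumour highest in Pbsn, Tgm4, Mme and Msmb lowers the CP1 means of these genes by construction, so the count is no separate test. Pbsn was then at -9.54 (adjusted p = 0.00443), Tgm4 at -8.78 (0.00282), Mme at -5.74 (4.072e-04) and Msmb at -6.57 (0.0420), the last against 0 counts in the remaining CP1 tumours, where a fitted value is no bound. Azgp1 was not called with CP1 replicate 1 (-0.48 ± 1.20, adjusted p = 0.774) or without it (-2.47, adjusted p = 0.178). Msmb averaged 17.4 ± 30.1 CPM in CP1 and 0.448 ± 0.325 CPM in P1 (5.24 ± 2.46, adjusted p = 0.129), the rise resting on that single tumour.

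In CP2 versus CP1, 1 of 6 genes was called, Msmb, where 43.3% of all genes were called, 21.3% higher and 21.9% lower. None of the 6 had each CP2 tumour below each CP1 tumour, against 25.6% of all genes. Msmb had 0 counts over CP2 and 1475 over CP1, at least 488-fold lower in CP2 over the summed libraries (edgeR adjusted p = 0.0434). All 1475 counts came from CP1 replicate 1, and without it both lines were at 0. Leaving out any 1 CP2 tumour ended the call (adjusted p = 0.0731 to 0.0753). Pbsn was at -5.02 ± 2.00 (adjusted p = 0.0664) and was called without CP1 replicate 2 or 3 (0.0437 and 0.0418). The others were not called, with Tgm4 at -2.59 ± 1.60 (0.215), Mme at -1.98 ± 1.08 (0.163), Azgp1 at -2.19 ± 1.32 (0.205) and Spink1 at 4.10 ± 2.91 (0.281). Without CP1 replicate 1 the values for Pbsn, Tgm4 and Mme changed sign, to 2.18, 3.41 and 1.37 (adjusted p = 0.315, 0.0843 and 0.160), none of them called.

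**Figure D2:**
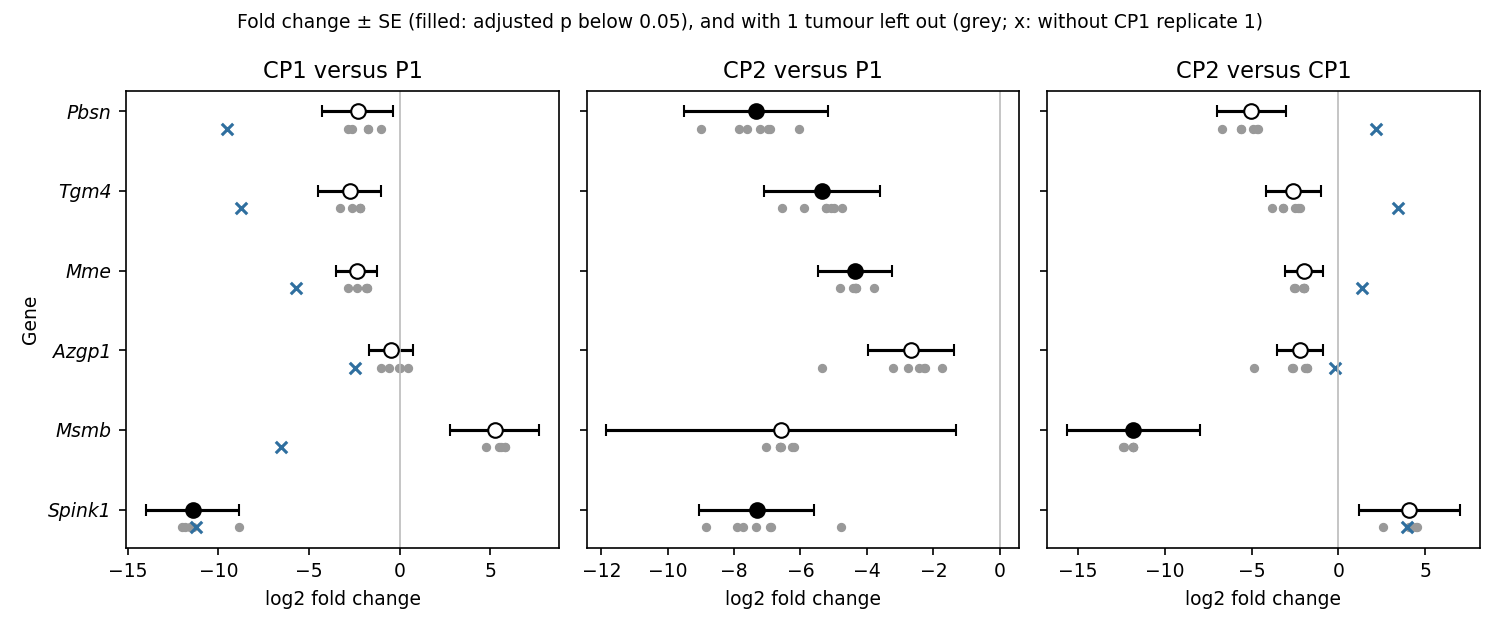
Log2 fold change with SE of each gene in the 3 comparisons (filled circles are called at an adjusted p below 0.05, open ones are not), and below each the values with 1 tumour left out, a cross standing for the fit without CP1 replicate 1. The cross lies far from the other values for Pbsn, Tgm4, Mme and Msmb in CP1 versus P1 and across 0 for Pbsn, Tgm4 and Mme in CP2 versus CP1; Msmb has no cross there because both lines were at 0.

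Ratios between the genes were compared within tumours, where they do not depend on library size. Tgm4 made up 32.9% of the summed Tgm4 and Pbsn counts in CP1 replicate 1 (exact 95% binomial interval 32.1% to 33.6%), and 33.9% (32.7% to 35.2%) and 33.8% (33.4% to 34.2%) in P1 replicates 2 and 3. The share was thus nearly the same in these 3 tumours while Pbsn itself spanned 119 to 1394 CPM. P1 replicate 1 stood apart at 56.1% (55.5% to 56.7%). The share was 86.0% (77.3% to 92.3%), 70.0% (66.7% to 73.1%), 72.4% (66.2% to 78.1%) and 97.3% (85.8% to 99.9%) in CP2 replicates 1 to 4, each above that of P1 replicate 1. In CP1 replicates 2 and 3 it was 50.7% (38.2% to 63.2%) and 57.1% (39.4% to 73.7%), intervals that hold the value of P1 replicate 1. Intervals cover counting error only, since reads are not independent molecules.

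Mme gave 4.16 counts per 100 Pbsn counts in CP1 replicate 1 and 7.71, 7.38 and 3.49 in P1 replicates 1 to 3. In CP2 it gave 208, 11.02, 54.7 and 2900 per 100, the last against a single Pbsn count. Msmb gave 13.8 counts per 100 Pbsn counts in CP1 replicate 1, against 0.159, 0.550 and 0.00524 in P1 replicates 1 to 3. The tumours rich in Pbsn thus agreed in their Mme content to within a few fold but not in their Msmb content. Azgp1 gave 0.718 counts per 100 Pbsn counts in CP1 replicate 1 and 0.349, 0.183 and 0.217 in P1 replicates 1 to 3.

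In P1, the proportion of Spink1 varied less with Ceacam10, a seminal vesicle gene, than with Svs6, Svs2 or Pbsn. It made up 14.5% (14.3% to 14.6%), 16.9% (11.5% to 23.5%) and 13.0% (12.5% to 13.5%) of the summed Spink1 and Ceacam10 counts in P1 replicates 1, 2 and 3, where Ceacam10, which encodes a protein of seminal vesicle fluid, stood at 4311, 4.30 and 612 CPM. The same share was 9.09% (6.38% to 12.5%) and 10.49% (8.68% to 12.5%) in CP2 replicates 1 and 4, the CP2 tumours with the most Ceacam10. In CP1 it was 1.77% (0.215% to 6.25%), 9.68% (2.04% to 25.8%) and 3.30% (0.685% to 9.33%), each from 3 or fewer Spink1 counts. With Svs6, the share of Spink1 was 7.51% (7.42% to 7.61%), 2.24% (1.49% to 3.22%) and 8.08% (7.78% to 8.38%) in P1 replicates 1, 2 and 3, and 12.9% and 12.5% in CP2 replicates 1 and 4. With Svs2 it was 1.5%, 0.0019% and 2.11% in P1 replicates 1, 2 and 3. P1 replicate 2 was thus lower than the other P1 tumours with both of these partners. Against Pbsn, Spink1 gave 188, 0.733 and 6.57 counts per 100 in P1 replicates 1 to 3.

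**Figure D3:**
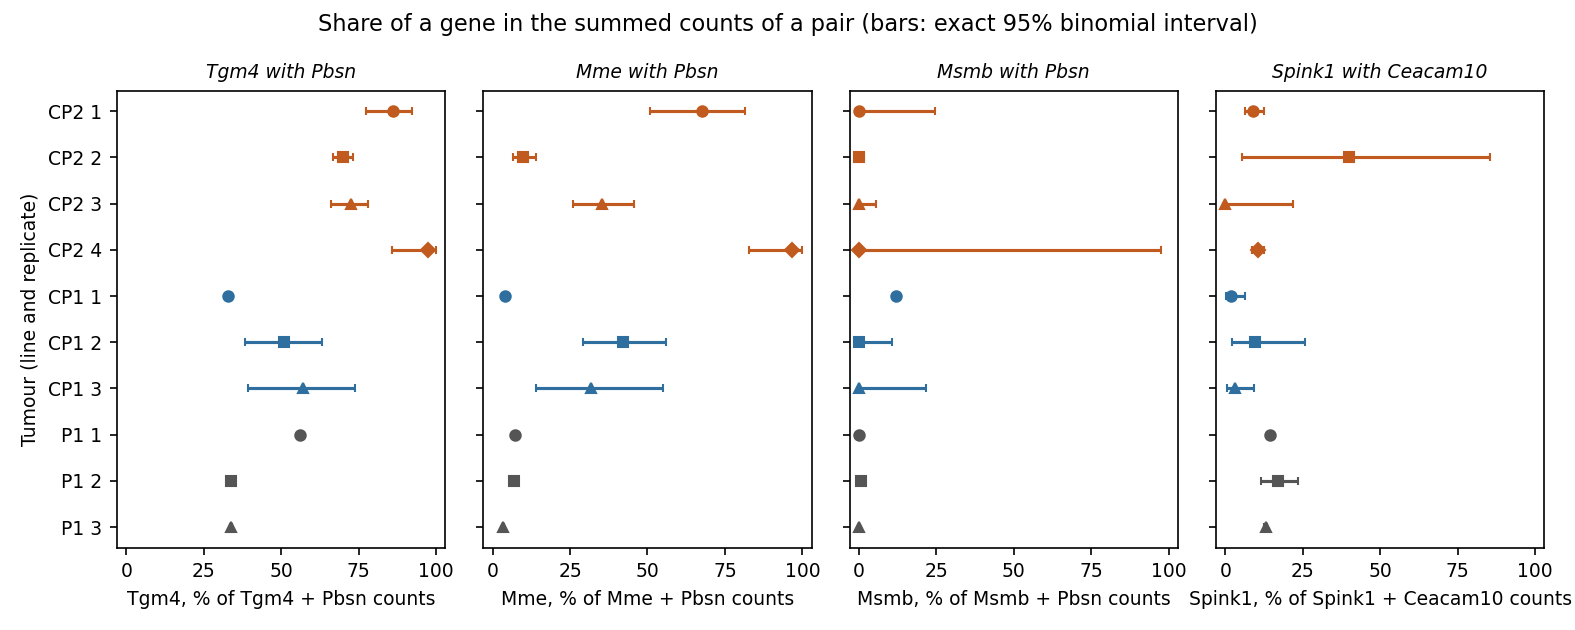
Share of a gene in the summed counts of a pair, in percent, for each tumour (CP2, CP1 and P1 from top to bottom), with exact 95% binomial intervals as bars. Tgm4 stays near 33% of the pair with Pbsn in CP1 replicate 1 and P1 replicates 2 and 3, Msmb leaves 0 visibly only in CP1 replicate 1 (12.1%), and Spink1 stays between 13.0% and 16.9% of the pair with Ceacam10 in the 3 P1 tumours.

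The seminal vesicle genes were not alike in how closely they tracked Spink1. Svs6 stood at 11.8, 0.0982, 0.0456 and 35.0 CPM in CP2, 0.601, 0.260 and 0.851 CPM in CP1, and 8972, 38.1 and 1043 CPM in P1. Svs2, the main clotting protein of the vesicle, stood at 314, 1.37, 0.319 and 351 CPM in CP2, 5.69, 3.05 and 8.26 CPM in CP1, and 47890, 46080 and 4246 CPM in P1. P1 replicate 2 was thus nearly as rich in Svs2 as P1 replicate 1, while it had 0.873 CPM of Spink1 against 729 CPM there. Pbsn followed neither, being highest in P1 replicate 3, the P1 tumour with the least Svs2.

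Over the 10 tumours, which differ in line and in seminal vesicle transcripts, the log2 CPM of Spink1 was most like that of Svs3a (Pearson r = 0.992), Svs3b (0.978) and Svs1 (0.975). It was 0.973 with Svs6, 0.89 with Svs4 and 0.817 with Svs2, and Svs3a and Svs3b are near-identical copies whose reads counting could split. Pbsn was most like 9530002B09Rik (0.993), 9530053A07Rik (0.988) and Gm5615 (0.985). 9530053A07Rik stood at 3.39, 94.8, 8.26 and 1.40 CPM in CP2, 802, 4.12 and 5.96 CPM in CP1, and 1932, 359 and 6208 CPM in P1. Tgm4 was most like Tcaf3 (0.973), Chrm1 (0.971) and 9530053A07Rik (0.967), and Mme most like Acrbp (0.978), Egf (0.975) and Chrm1 (0.973). Egf, which encodes epidermal growth factor, had 1.54 to 2.42 CPM in CP2, 4.95, 1.49 and 0.770 CPM in CP1, and 8.75, 4.68 and 19.8 CPM in P1, the same order of tumours as Mme in CP1 and P1. Msmb was most like Wfdc3 (0.972), Epyc (0.865) and Rbbp5 (0.844). Wfdc3 stood at 0.183 to 0.512 CPM in CP2, 9.75, 0.227 and 0.243 CPM in CP1, and 0.893, 0.780 and 0.548 CPM in P1. Azgp1, with few counts, was most like Rbm12b1 (0.936), Fgl1 (0.908) and Ppil3 (0.905). Among the 6 genes the values were 0.961 for Pbsn and Tgm4, 0.955 for Tgm4 and Mme and 0.915 for Pbsn and Mme, against 0.453 for Pbsn and Spink1 and 0.0103 for Msmb and Spink1.

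Other secretory genes of the prostate lobes repeated parts of this pattern. Defb50, a beta-defensin gene, stood at 0.0514, 0.736, 0.0913 and 0 CPM in CP2, 106, 0.260 and 0.162 CPM in CP1, and 48.1, 29.5 and 162 CPM in P1. Apof, which encodes apolipoprotein F, had 0.0514 to 1.14 CPM in CP2, 3.67, 0.195 and 0.162 CPM in CP1, and 6.5, 1.53 and 13.0 CPM in P1. Both were high in the tumours that were high in Pbsn. Sbp and Sbpl, for spermine-binding protein of the ventral lobe and its relative, were found in another tumour. Sbp had 761 counts (24.7 CPM) in CP1 replicate 2 and at most 13 counts in each other tumour, and Sbpl had 138 counts there and at most 2 elsewhere. CP1 replicate 2 was also the tumour with the most Upk3a, and it had 1.07 CPM of Pbsn.

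**Figure D4:**
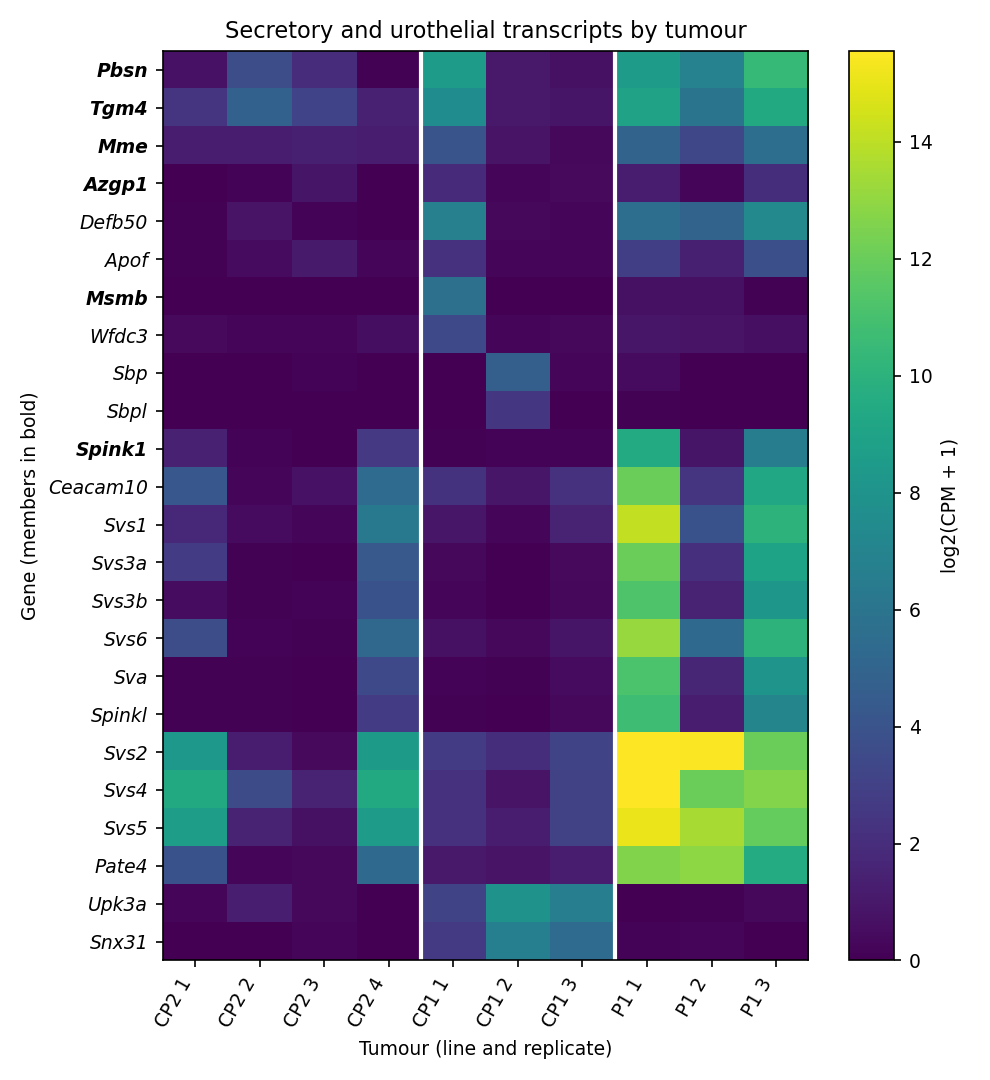
Log2(CPM + 1) of the 6 genes (bold) and of other secretory, seminal vesicle and urothelial genes in each tumour, CP2, CP1 and P1 from left to right. Within their rows, Pbsn, Tgm4, Mme, Defb50 and Apof are highest in CP1 replicate 1 and the P1 tumours, and Msmb and Wfdc3 in CP1 replicate 1. Sbp and Sbpl are highest in CP1 replicate 2, and Spink1, Ceacam10, Svs1, Svs3a and Svs6 in P1 replicates 1 and 3. All genes share 1 colour scale, on which those of a few CPM, such as Apof, stay dark.

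Of 12 other prostate secretory genes 10 were tested, of which 9 fell and 0 rose in CP2 versus P1, 7 fell and 0 rose in CP1 versus P1, and 3 fell and 1 rose in CP2 versus CP1. Their median log2 fold changes were -4.47, -2.76 and -0.94, against 0.0016, -0.0101 and -0.0053 over all genes. Ceacam10 and Pate4 are also among the seminal vesicle genes, and Pate4 fell most in both comparisons with P1 (-8.53 ± 1.64 in CP2 and -12.19 ± 2.18 in CP1, edgeR adjusted p = 0.00150 and 0.00127). Some of these genes fell in both lines without the spread seen for Pbsn. Tspan8, a tetraspanin gene of secretory epithelia, had 17.9 to 33.3 CPM in CP2, 101.5 to 178 CPM in CP1 and 518 to 990 CPM in P1 (log2 fold change -4.96 ± 0.32 in CP2 and -2.56 ± 0.32 in CP1, edgeR adjusted p = 1.592e-06 and 1.335e-04). Clu, for the secreted chaperone clusterin, had 279 to 962 CPM in CP2, 77.7 to 203 CPM in CP1 and 7364 to 10910 CPM in P1 (-3.84 ± 0.45 in CP2 and -6.17 ± 0.56 in CP1, edgeR adjusted p = 6.120e-05 and 1.926e-05). CP1 replicate 1 did not stand apart towards P1 in Tspan8, at 101.5 CPM, the lowest of CP1.

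Regulators and markers of luminal secretory cells were mostly lower in both lines. Of 16 tested, 12 fell and 1 rose in CP2 versus P1, 9 fell and 4 rose in CP1 versus P1, and 7 fell and 0 rose in CP2 versus CP1. Spdef, an Ets factor of secretory epithelium, fell by 5.43 ± 0.83 in CP2 and by 4.37 ± 0.85 in CP1 on the log2 scale (edgeR adjusted p = 3.486e-04 and 0.00203). Krt8, a luminal keratin gene, fell by 6.47 ± 0.76 in CP2 and by 4.83 ± 0.80 in CP1 (adjusted p = 6.649e-05 and 7.973e-04). Foxa1, a pioneer factor of prostate epithelium, was lower in CP2 (-0.62 ± 0.18, adjusted p = 0.0136) and higher in CP1 (1.12 ± 0.19, adjusted p = 0.00103), and Creb3l1, a factor of the secretory pathway, was likewise lower in CP2 (-1.76 ± 0.23, adjusted p = 1.325e-04) and higher in CP1 (2.098 ± 0.251, adjusted p = 1.040e-04). Hoxb13, which marks prostate epithelium, was not called in CP2 versus P1 (0.01 ± 0.20, adjusted p = 0.974), in CP1 versus P1 (0.18 ± 0.22, adjusted p = 0.531) or in CP2 versus CP1 (-0.17 ± 0.20, adjusted p = 0.517). Fkbp5, an androgen-responsive co-chaperone gene, rose in CP2 (1.41 ± 0.34, adjusted p = 0.00533) and in CP1 (1.41 ± 0.35, adjusted p = 0.00859). It was the only gene of the list called higher in CP2. Some other genes known to respond to androgen fell there, among them Tmprss2 (-3.66 ± 0.57, adjusted p = 4.130e-04), Steap4 (-5.36 ± 0.41, 4.696e-06), Slc45a3 (-3.69 ± 0.32, 9.092e-06) and Homer2 (-3.83 ± 0.61, 4.348e-04). In CP1 Tmprss2 (-2.05 ± 0.60), Steap4 (-3.89 ± 0.42) and Slc45a3 (-2.14 ± 0.33) fell too, and Homer2 was not called (-0.74 ± 0.58, edgeR adjusted p = 0.333). Ndrg1, of the same list, went the other way. It was not called in CP2 (0.64 ± 0.27, edgeR adjusted p = 0.0691), though each CP2 tumour lay above each P1 tumour. In CP1 Ndrg1 rose (0.97 ± 0.29, edgeR adjusted p = 0.0209).

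Relatives of the 6 genes behaved differently from family to family. Of 11 other lipocalins 4 were tested, of which 4 fell in CP2 and 2 in CP1 versus P1, with Lcn2 at -3.62 ± 0.76 in CP2 and -5.28 ± 0.93 in CP1 (edgeR adjusted p = 0.00252 and 0.00115). Of 8 other transglutaminases 5 were tested, of which 2 rose and 3 fell in CP2 and 1 rose and 2 fell in CP1. Tgm2, the widely expressed tissue enzyme, fell by 1.02 ± 0.16 in CP2 and by 1.06 ± 0.18 in CP1 (adjusted p = 4.938e-04 and 8.483e-04), while F13a1, for the clotting factor subunit of macrophages and platelets, rose by 3.02 ± 0.27 in CP2 and by 2.05 ± 0.27 in CP1 (adjusted p = 1.112e-05 and 1.699e-04). Tgm3 rose in CP2 versus P1 (3.86 ± 0.52, adjusted p = 1.492e-04), was not called in CP1 versus P1 (0.46 ± 0.57, adjusted p = 0.546) and was higher in CP2 than in CP1 (3.40 ± 0.50, adjusted p = 5.302e-04). Of 11 other Kazal and Kunitz-type inhibitors and related genes 7 were tested, of which 4 fell in each line and 2 rose in CP2 and 1 in CP1. Spink4, a Kazal inhibitor of gut goblet cells, fell by 8.51 ± 0.49 in CP2 and by 8.36 ± 0.53 in CP1 (adjusted p = 9.272e-07 and 2.829e-06). Of 6 neprilysin relatives 2 were tested. Ece1, an endothelin-converting enzyme gene, fell in CP1 (-0.75 ± 0.17, adjusted p = 0.00445) and was not called in CP2 (-0.34 ± 0.15, adjusted p = 0.0814), so that neither relative fell as Mme did in CP2.

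Markers of other tissues that could carry these transcripts were read in the same libraries. Pancreatic acinar genes, given that Spink1 is a pancreatic inhibitor, were at or near 0, with 8 of 9 at no more than 21 counts in each tumour. The exception, Cela1, had 34 to 60 counts in CP2, 470 to 896 in CP1 and 3758 to 11385 in P1, and was highest in P1 replicate 2, where Spink1 was lowest of P1. Of 8 epididymal genes, 5 or 6 were at 0 counts in P1 tumours. In CP1 replicates 1, 2 and 3 it was 5, 2 and 4, and in CP2 replicates 1 to 4 it was 3, 1, 2 and 4. Defb42 (2026 counts) and Crisp1 (858 counts) were the main ones in P1 replicate 2. In CPM, Crisp1 reached 30.2 in a CP2 tumour, 10.4 in a CP1 tumour and 26.8 in a P1 tumour. The summed share of the epididymal genes was at most 0.00883% in each tumour. Smooth muscle genes took 0.0724% to 0.109% of the counts in CP2 tumours, 0.0803%, 0.357% and 0.514% in CP1 replicates 1, 2 and 3, and 0.281%, 0.145% and 0.107% in P1 replicates 1, 2 and 3. CP1 replicate 1, the CP1 tumour rich in Pbsn, Tgm4, Mme and Msmb, thus had the smallest share of smooth muscle genes in its line. Its urothelial genes took 0.0112%, against 0.228% and 0.110% in CP1 replicates 2 and 3. The intestinal genes took 0.000873% to 0.00271% in CP2, 0.00182% to 0.00299% in CP1 and 0.128% to 0.265% in P1. P1 replicate 2, the lowest of P1 in Pbsn, Tgm4 and Spink1, had 0.242%. Fibroblast genes took 0.865% to 1.07% in CP2, 1.52% to 2.35% in CP1 and 0.510% to 0.872% in P1, and endothelial genes 0.0204% to 0.0352% in CP2, 0.0307% to 0.0348% in CP1 and 0.0286% to 0.0489% in P1. Neutrophil genes took 0.00213% to 0.0123% in CP2, 0.00245% to 0.0132% in CP1 and 0.0326% to 0.0730% in P1, most of the P1 sum being Ltf, which is also among the prostate secretory genes. The part of these tissues in the results above was not tested. Host gland and graft cells come from the same species, and gene counts do not tell their transcripts apart.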

How the data were processed

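Each deposited file lists read counts for each Ensembl gene in 1 tumour as whole numbers, not normalised, and the totals give the depth. The submitters' processing notes name HTSeq 0.6.0, TopHat2 2.1.0, DESeq2 1.14.1, FastQC 0.11.4, Bowtie2 2.2.6.0, R 3.2.3 and genome build GRCm38.p3, with order, parameters, annotation and strand setting not given in the sources used here. GENCODE M21 (GRCm38) gave symbols, positions and exon lengths.

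Counts were analysed with edgeR 4.0.16, limma 3.58.1 and R 4.3.3: filterByExpr (minimum count 10, minimum total 15), TMM, glmQLFit and glmQLFTest, with 1 mean per line. SE was derived from the F statistic (absolute log2 fold change over its root). The fit was tested on simulated counts. Alternatives were RLE factors, DESeq2 1.42.0, no filter, 2 lines only, other library sizes and tumours left out. Correlations used log2 CPM with a prior count of 2. Groups came from the tissue labels. For other genes, the rule took the 3 most correlated genes per member and examples from 15 lists, of which the text names a selection. Tspan8, Foxa1, Hoxb13, Apof, Sbp, Sbpl, Svs6, Tmprss2, Steap4, Slc45a3, Homer2, Ndrg1, Krt20 and Zdhhc3 were chosen after their values were seen. The members and lists were chosen with earlier results of these data known. Part of the donor genotypes is not reported here.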

Additional observations from a re-analysis of the deposited data

How the results depend on the processing

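The number of the 6 genes called in CP2 versus P1 (4) stayed between 3 and 4 in 13 alternatives. The genes called were not always the same, since without CP2 replicate 3 Tgm4 lost its call and Azgp1 gained one. In CP1 versus P1 (1) the number was 1 to 5 with 1 tumour left out, the 5 being without CP1 replicate 1 and including Msmb. In CP2 versus CP1 (1) it was 0 to 2 with 1 tumour left out, 0 in a fit of those lines alone, where 3 of the 6 genes passed the filter, and 4 with CP1 replicates 2 and 3 removed. That removal left 4161 genes called in CP2 versus CP1, against 7635 with all tumours, in a fit with fewer samples. It leaves CP1 as 1 tumour, the one high in Pbsn and Msmb, which is assumed to vary like those of the other lines, so these calls carry no replicate check of CP1. Spink1 was then not called in CP1 versus P1, with a fold change as large (-11.82). Msmb stood at 6.82 in that fit, in the opposite direction, from the 1 CP1 tumour left. Among the genes' recomputed fold changes, 199 kept direction and side of the threshold, 11 gained and 9 lost a call, and 7 changed sign. In CP1 versus P1, leaving out 1 tumour moved Azgp1 between -2.47 and 0.45, with 0.01 without CP1 replicate 2, and Msmb between -6.57 and 5.83, and Azgp1 stood at 0.84 with CP1 replicates 2 and 3 removed. In CP2 versus CP1 it moved Pbsn between -6.69 and 2.18, Tgm4 between -3.79 and 3.41 and Mme between -2.54 and 1.37, each positive only without CP1 replicate 1. The cause was not tested. DESeq2 called Pbsn lower in CP2 versus CP1 (-5.03, adjusted p = 0.0212) and gave no adjusted p for Msmb. No paired analysis was possible because the labels give no replicate numbers that pair tumours between lines. Scaling moved the median of all genes by less than 0.1 on the log2 scale. Groups of 3 or 4 tumours and counts near 0 limit precision for Azgp1 and Msmb.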
